A study of Homo sapiens with 6 samples.

Results

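Extracellular control of Wnt signalling was followed in cells depleted of the transcription factor SOX9. Described are 10 genes, the Dickkopf genes DKK1, DKK2, DKK3 and DKK4, the R-spondin genes RSPO1 and RSPO3, the R-spondin receptor genes LGR4 and LGR5, and the ubiquitin ligase genes ZNRF3 and RNF43. They were chosen by gene symbol, checked through the Entrez number of each probe set, and are 10 of 18574 genes on the array, measured by 26 of 49293 probe sets. They were picked with results of this same comparison in view, in which DKK1 and RSPO3 were among the larger rises. The values of all 10 genes are therefore given as a description, without p-values.

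The knockdown group was 3 arrays of cells labelled HepG2, a line from a human liver cancer, infected with a virus carrying a hairpin RNA (shSox9). The control group was 3 arrays of the same line infected with empty virus. Both groups thus shared viral infection, and per the labels' protocols each was built into a clone, so a difference between clones cannot be told apart from an effect of the knockdown. Neither the hairpin sequence nor the number of hairpins is given in the sources used here, and the labels do not tie the 3 arrays of a group to separate cultures, so their spread, and any p-value built on it, may be technical.

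Wnt proteins bind frizzled receptors and the coreceptors LRP5 and LRP6 at the cell surface, which stabilises beta-catenin and lets it activate genes with TCF and LEF factors. DKK1, DKK2 and DKK4 bind the coreceptors and keep Wnt proteins from using them, whereas DKK3 is a more distant relative. ZNRF3 and RNF43 remove frizzled receptors from the membrane, and R-spondins bound to LGR4, LGR5 or LGR6 clear these ligases and so raise the sensitivity to Wnt. Several members (DKK1, LGR5, ZNRF3 and RNF43) are themselves known targets of beta-catenin in many tissues. In the liver, R-spondins and Wnt proteins from endothelial cells maintain the gene programme of hepatocytes around the central vein, and HepG2 cells are known to carry a deletion that stabilises beta-catenin.

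Values are log2 signals made by the authors with RMA, a method that corrects background, equalises the arrays and summarises the probes of each set, and that flattens differences at low signal (here, values under 5). SOX9 itself was lower on the knockdown arrays. Its probe set of highest signal read 6.91, 7.08 and 6.90 on the knockdown arrays, against 8.15, 7.99 and 7.67 on the control arrays, which left 51.0% of the control signal (log2 fold change -0.97, SE 0.13, limma adjusted p = 0.00294). A second probe set left 56.4% (limma adjusted p = 0.0047). The third left 57.2%, with overlap between the groups and no call (limma adjusted p = 0.0716). Markers of hepatocytes read low, with 3 of 16 at a mean of at least 5 (TTR, RBP4 and HNF4A), list means of 3.88 to 4.09 on the knockdown arrays and 3.71 to 3.99 on the control arrays, and AFP, APOA2, APOB and FGG between 2.34 and 2.72. Apart from TTR, RBP4 and HNF4A, these markers, several of them known from HepG2 cells, thus read in the low range here, which does not bear out the HepG2 label. Of the markers of kidney epithelium, fibroblasts, endothelium and leukocytes, 4 of 12, 2 of 9, 3 of 8 and 2 of 8 read at least 5. In these marker lists RBP4, HNF4A, LHX1, DCN and CD68 passed the test as higher in knockdown, and their part in the results below was not tested.

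Of the 26 probe sets, 3 were called higher in knockdown (limma, adjusted p under 0.05 over all probe sets), beside 12.6% of all probe sets in either direction, 5.94% higher and 6.68% lower. These were the single probe sets of DKK1 and RSPO3 and 1 of 6 for DKK3. The groups did not overlap for 5 of the 26, 4 higher and 1 lower in knockdown, beside 29.6% of all probe sets in either direction (14.8% each way). By gene, on the probe set of highest mean, 2 of 10 were called, both higher, beside 16.8% of all genes (8.41% higher and 8.35% lower). At that level 3 of 10 did not overlap, 2 higher and 1 lower, beside 32.4% of all genes (16.9% higher and 15.5% lower). Since the comparison had chosen the genes, nothing is read from these shares. The other probe sets lay close to 0, with 20 of 26 within 0.25 of it on the log2 scale, and the median over the 26 was 0.04, beside 0.01 over all probe sets.

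**Figure D1:**
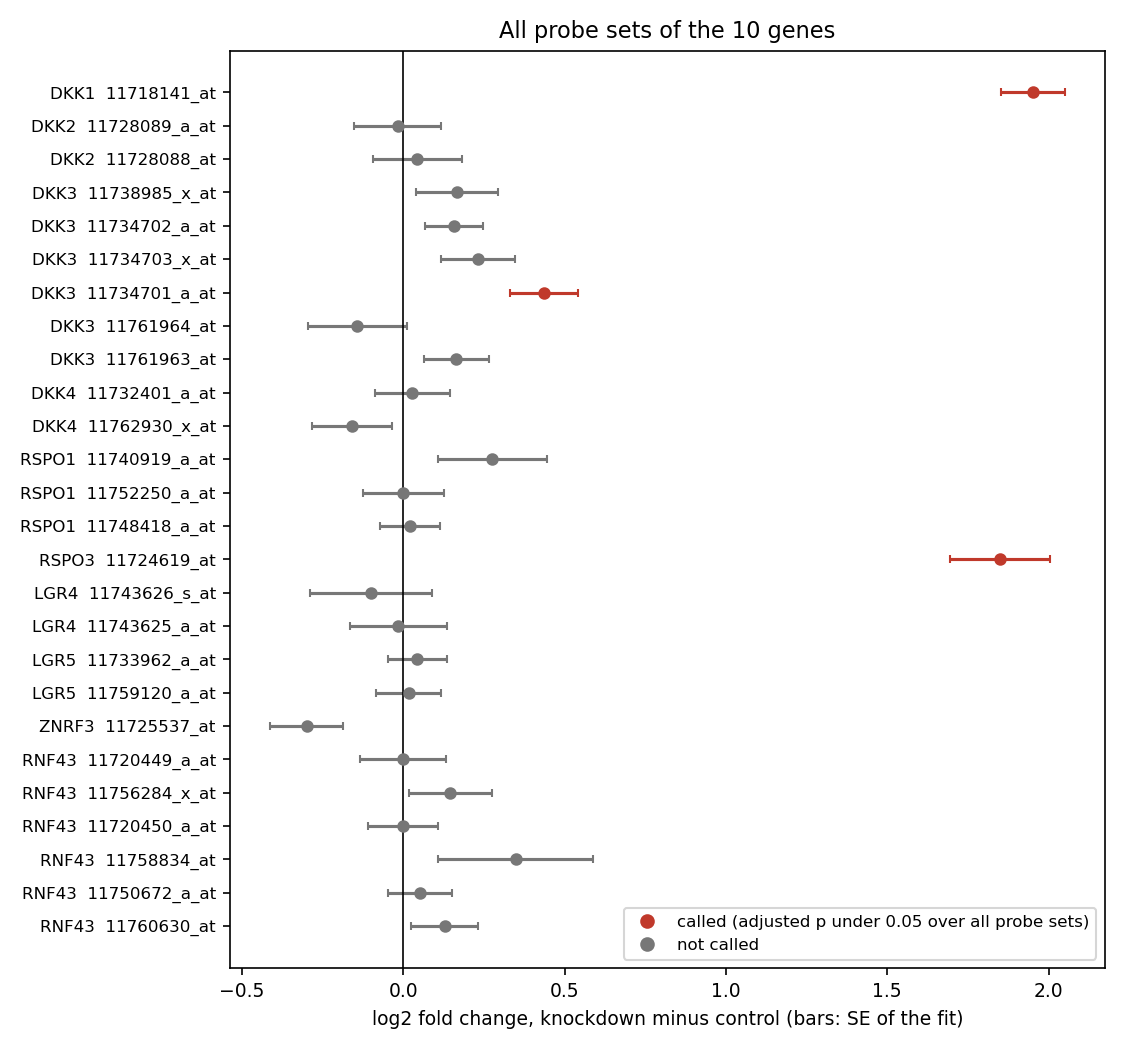
Log2 fold change, knockdown minus control, of each of the 26 probe sets (points) with the standard error of the fit (bars). Red points were called at an adjusted p under 0.05 over all probe sets. DKK1 and RSPO3 lie at 1.95 and 1.85, and every other probe set lies between -0.30 and 0.44.

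DKK1 encodes the best studied Dickkopf, a secreted inhibitor that binds LRP5 and LRP6. Its probe set, 11718141_at, read 9.05, 9.23 and 9.19 on the knockdown arrays, against 7.27, 7.12 and 7.21 on the control arrays. The groups lay far apart, and each was tight, with an SD of 0.09 in knockdown and 0.08 in control (n = 3 each). The log2 fold change was 1.95 (SE 0.10), the fourth highest of all probe sets and a 3.87-fold higher signal. The table places DKK1 on chromosome 10, band q21.1, plus strand, from 54073968 to 54077678, in a build that the sources used here do not give.

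RSPO3 encodes a secreted enhancer of Wnt signalling that acts through LGR receptors and the ZNRF3 and RNF43 ligases, and so opposes the direction of DKK1 on the same pathway. Probe set 11724619_at read 6.89, 6.85 and 6.89 on the knockdown arrays, against 5.18, 4.64 and 5.26 on the control arrays. The knockdown arrays lay close together (SD 0.03, against 0.33 in control), control 2 lay below the other controls, and the groups did not overlap. The log2 fold change was 1.85 (SE 0.16), a 3.60-fold higher signal, and it was 1.66 without control 2. RSPO3 is placed on chromosome 6, band q22.33, plus strand, from 127439780 to 127518441.

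Measures of RNA handling also differed between the groups. The poly-A spike-ins, RNAs added before labelling, read 7.12, 6.79 and 6.93 on the knockdown arrays, against 6.36, 6.48 and 6.95 on control arrays 1 to 3. For GAPDH, the 3' control probe sets exceeded the 5' ones by 0.42, 0.37 and 0.24 in knockdown, against 0.04, 0.03 and 0.26 on control arrays 1 to 3. For ACTB the same excess was 2.29, 2.34 and 2.19 in knockdown, against 2.56, 2.55 and 2.51 in control. Control 3 thus read within the knockdown range for the spike-ins and GAPDH and with the other controls for ACTB, and the ACTB difference ran opposite to that of GAPDH. Control 3 read 7.21 for DKK1 and 5.26 for RSPO3. With the spike-in level as a covariate the log2 fold changes were 1.999 and 1.71. The part of these measures in the results was not tested otherwise.

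**Figure D2:**
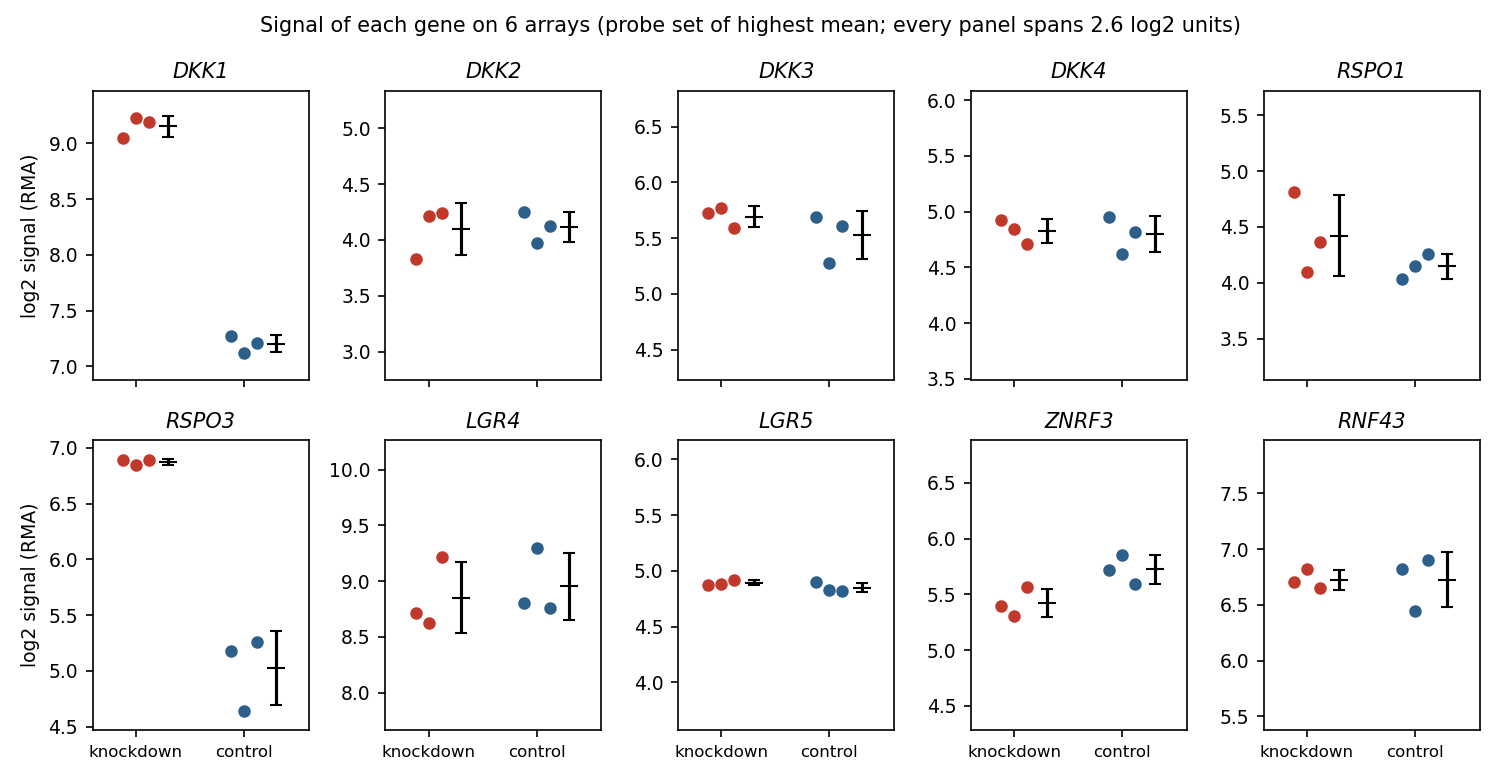
Log2 RMA signal of the probe set of highest mean of each gene on the 3 knockdown arrays (red) and 3 control arrays (blue), with mean and SD in black; all panels span the same number of log2 units from different starting points. DKK1 and RSPO3 separate widely, ZNRF3 narrowly, and the groups overlap for the other 7 genes.

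DKK1 and RSPO3 were the nearest genes to each other in pattern. Each gene was represented by its probe set of highest mean and centred on its own mean over the 6 arrays, and likeness was the root mean square difference between 2 such profiles among 18107 genes. This was 0.18 between DKK1 and RSPO3. After RSPO3, the nearest to DKK1 were GKN1, RBPMS2, ELAPOR1 and UBASH3B, at 0.18, 0.18, 0.21 and 0.26. After DKK1, the nearest to RSPO3 were GKN1, RBPMS2, SPINK1 and ACTC1, at 0.18, 0.20, 0.20 and 0.22. All of these genes had log2 fold changes of 1.54 to 1.96, and since the measure rests on 6 arrays in 2 groups it mostly reflects the size of that difference.

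The promoters of DKK1 and RSPO3 are shown because these 2 had the largest log2 fold changes of the 10 genes. Of the 10 genes, 5 had an entry in the RefSeq promoter table of GRCh38.p14. The sequences are the 250 bases before the transcription start, 5′ to 3′ on the plus strand, at chr10:52314031-52314280 for DKK1 and chr6:127118421-127118670 for RSPO3. Capitals mark the motifs ACAAT (a core form of SOX sites), CTTTGAT (a form of TCF and LEF site) and its variant form CTTTGAA. The TATA box TATAAA, added to the search later, is marked too. Both strands were searched.
DKK1: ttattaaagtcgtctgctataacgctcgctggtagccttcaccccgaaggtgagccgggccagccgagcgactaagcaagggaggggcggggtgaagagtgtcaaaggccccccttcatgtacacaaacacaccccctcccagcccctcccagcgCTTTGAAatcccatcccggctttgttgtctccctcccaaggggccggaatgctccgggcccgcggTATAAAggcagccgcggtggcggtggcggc
RSPO3: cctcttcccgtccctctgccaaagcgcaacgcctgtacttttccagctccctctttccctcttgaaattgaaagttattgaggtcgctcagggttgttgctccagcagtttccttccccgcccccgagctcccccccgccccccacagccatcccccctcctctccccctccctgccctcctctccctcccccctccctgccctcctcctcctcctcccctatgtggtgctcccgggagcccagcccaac

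In the DKK1 promoter CTTTGAA begins 95 bases and TATAAA 30 bases before the start. Among 35116 promoter windows of the same length, 3.8% held CTTTGAA and 10.7% held TATAAA. The RSPO3 window held none of the 4 motifs. ACAAT, which 24.6% of windows held, and CTTTGAT, which 2.26% held, were in neither window. Other forms of SOX, TCF and LEF sites were not searched, so their absence cannot be read from this. CTTTGTT, for example, stands unmarked in the DKK1 window. These matches describe the letters and do not show that a factor binds.

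The other Dickkopf genes differed little. DKK2, an inhibitor in most settings, is measured by 2 probe sets with signals under 5. Its higher one read 3.83, 4.22 and 4.25 on the knockdown arrays, against 4.25, 3.98 and 4.13 on the control arrays, with a log2 fold change of -0.02 (SE 0.14). The other differed by 0.04. The groups overlapped on both.

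DKK3 encodes a secreted glycoprotein that binds LRP5 and LRP6 poorly and is often silenced in tumours. Its 6 probe sets differed by -0.14 to 0.44. The one called, 11734701_a_at, read 4.74, 4.98 and 4.75 on the knockdown arrays, against 4.32, 4.40 and 4.43 on the control arrays, with no overlap and a 1.353-fold higher signal. All these values lay under 5, and the call was lost without any of the 3 knockdown arrays or without control 1 or 2, but not without control 3. It was also lost with the replicate number as a block and with the spike-in covariate. The log2 fold change lay between 0.36 and 0.48 over the 15 alternatives that tested it, the filter at 5 having removed it.

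The table aligns 11734701_a_at to the minus strand of chromosome 11, band p15.3, from 11984544 to 12030919. The 3 other probe sets on that strand differed by 0.17, 0.16 and 0.23 with SEs of 0.13, 0.09 and 0.12. Of these, 11734702_a_at had groups that did not overlap, at 5.52, 5.47 and 5.45 in knockdown, against 5.29, 5.34 and 5.34 in control. All 4 minus-strand sets thus read higher on average in knockdown, although they target transcripts of 1 gene and are not independent. The remaining 2, 11761963_at and 11761964_at, are named DKK3 in the table but aligned to the plus strand, from 11982381 to 11984928, and they differed by 0.16 and -0.14.

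DKK4, an inhibitor that is itself a beta-catenin target, read under 5 on both of its probe sets. The higher one read 4.93, 4.84 and 4.71 on the knockdown arrays, against 4.95, 4.62 and 4.82 on the control arrays, a log2 fold change of 0.03 (SE 0.12). The lower one differed by -0.16 (SE 0.12). On both the groups overlapped.

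RSPO1, a close relative of RSPO3, was not called on any probe set. Its 3 probe sets read near 4 and differed by 0.28, -0.001 and 0.02. The set with the largest of these, 11740919_a_at, read 4.81, 4.09 and 4.37 on the knockdown arrays, against 4.04, 4.15 and 4.26 on the control arrays. Knockdown 1 was the highest of the 6 arrays, and without it this probe set differed by 0.08.

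LGR4 and LGR5 encode multi-pass membrane receptors that bind R-spondins. The LGR4 probe set 11743626_s_at read 8.72, 8.63 and 9.21 on the knockdown arrays, against 8.80, 9.30 and 8.76 on the control arrays. Each group held 1 high array, knockdown 3 and control 2, and the groups overlapped, with a log2 fold change of -0.10 (SE 0.19). The other LGR4 probe set, 11743625_a_at, had means of 4.16 in knockdown and 4.18 in control, with overlap and a log2 fold change of -0.02 (SE 0.15). LGR5, a marker of stem cells in several epithelia, read 4.87, 4.89 and 4.92 on the knockdown arrays, against 4.90, 4.83 and 4.82 on the control arrays. Its difference of 0.04 (SE 0.09) was within the spread, and the second probe set, near 2.2 in both groups, differed by 0.02.

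ZNRF3 was the 1 member whose knockdown arrays all lay below the controls. It read 5.40, 5.31 and 5.56 on the knockdown arrays, against 5.72, 5.86 and 5.59 on the control arrays. The groups were separated only by the small step between knockdown 3 and control 3, and the log2 fold change of -0.30 (SE 0.11) was not called. RNF43, its close relative, read 6.70, 6.83 and 6.65 on the knockdown arrays, against 6.83, 6.45 and 6.91 on the control arrays. The mean was 6.73 in both groups. The other 5 probe sets of RNF43 read under 5 and differed by -0.001 to 0.35, the last being 11758834_at, whose knockdown arrays spread from 3.82 to 4.93.

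Within the control group, array 2 was often the lowest. It gave the lowest control value on 19 of the 26 probe sets, against 43.5% of all probe sets on the array. In knockdown, array 3 was the lowest on 13 of 26, against 41.6% of all. Many of these probe sets share a gene or have low signals, so they are not independent.

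**Figure D3:**
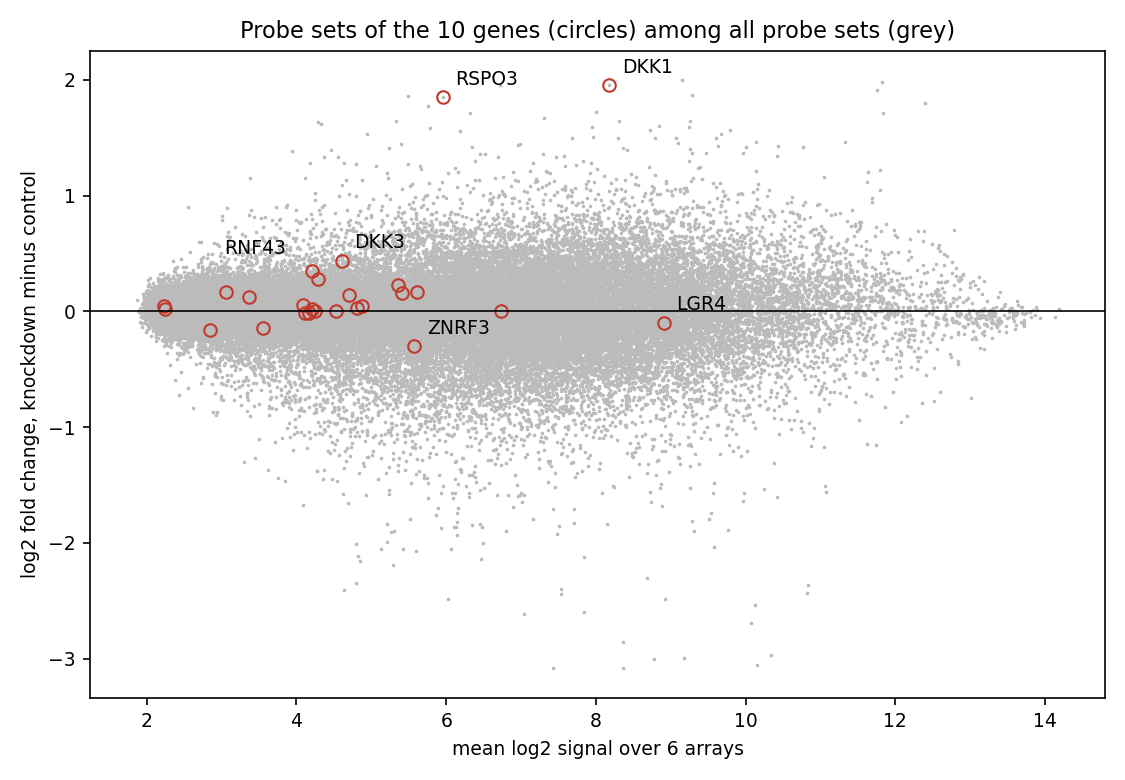
Log2 fold change, knockdown minus control, against the mean log2 signal over the 6 arrays for all probe sets (grey) and for the 26 probe sets of the 10 genes (red circles). DKK1 and RSPO3 lie at the upper edge of all probe sets, while the others lie within the main cloud.

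The rest of the Wnt pathway was described by 7 lists that leave out the 10 genes. Of the 123 listed genes measured, 20 passed (limma adjusted p under 0.05 over all genes), 9 higher and 11 lower in knockdown. This was 16.3%, beside 16.8% of all genes. The median log2 fold change was 0.03, the same as over all genes to 2 decimals. With the spike-in covariate 2 of the 20 passed, CCND1 and FZD10, beside 4.13% of all genes.

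Further inhibitors, most but not all of them secreted, gave no call. Of 15 measured genes, among them the SFRP family, WIF1 and SOST, 0 passed in limma, 3 had an unadjusted p under 0.05, the median log2 fold change was 0.07, and no alternative gave more than 1 call. The carboxylesterase NOTUM, which strips the lipid from Wnt proteins, differed by -0.40 (SE 0.14, limma adjusted p = 0.0944), and TPBG, a membrane protein that inhibits Wnt signalling, by -0.28 (SE 0.10, limma adjusted p = 0.0824). A second NOTUM probe set differed by -0.71, and NOTUM passed when that one, the more variable, stood for the gene. The range of the NOTUM adjusted p over all alternatives was 0.00712 to 0.37.

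Among 8 further R-spondin genes and receptors of DKK and R-spondin proteins, 1 passed. The coreceptor LRP6 read 8.18 ± 0.03 in knockdown and 8.62 ± 0.22 in control (SD, n = 3), lower on average (log2 fold change -0.44, SE 0.12, limma adjusted p = 0.0305). Its call was lost without any of the 3 knockdown arrays or controls 1 and 2 (limma adjusted p 0.07 to 0.105), and another probe set read 0.08. KREMEN1, which helps DKK1 take LRP6 off the membrane, differed by -0.38 (SE 0.12, limma adjusted p = 0.0677). The 3 probe sets of KREMEN1 ranged from -0.38 to 0.19, and averaged over them it differed by -0.16 (limma adjusted p = 0.352). Chosen after their values were seen, the remaining family members RSPO2, RSPO4 and LGR6 differed by 0.17, 0.02 and 0.22 and did not pass. KREMEN2, the relative of KREMEN1, was also chosen after its values were seen. It differed by 0.29 (SE 0.10, limma adjusted p = 0.0814) and did not pass, and another of its probe sets read -0.07.

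Of 21 Wnt ligands and secretion genes, 2 rose and 1 fell. WNT10B fell, at 10.14 ± 0.01 in knockdown and 10.68 ± 0.14 in control (SD, n = 3), lower on the log2 scale (log2 fold change -0.54, SE 0.10, limma adjusted p = 0.00548). WNT5A, which mostly acts without beta-catenin, rose by 0.46 (limma adjusted p = 0.0308) and WNT7B by 0.42 (limma adjusted p = 0.0308). Each of these 2 calls was lost on leaving out any of 4 single arrays: knockdown 2 or 3 or control 1 or 3 for WNT5A (limma adjusted p 0.0651 to 0.106), and knockdown 1 or 3 or control 1 or 2 for WNT7B (0.0717 to 0.139). Single probe sets of WNT5A and WNT7B read -0.02 and -0.05.

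Frizzled and other Wnt receptors held the largest fall of the 7 lists. FZD10 read 7.66 ± 0.18 in knockdown and 8.74 ± 0.06 in control (SD, n = 3), lower in all knockdown arrays (log2 fold change -1.08, SE 0.11, limma adjusted p = 3.16e-04), and all 3 of its probe sets were lower, by -1.08 to -0.89. FZD2 rose by 0.60 (SE 0.16) and the receptor kinase ROR1 by 0.57 (SE 0.13). The other 11 of 14 did not pass. FZD2 lost its call without knockdown 1 or 2 or control 1 or 2 (limma adjusted p 0.055 to 0.134), and ROR1 without control 1 (0.052). Another ROR1 probe set read 0.04, and averaged over both ROR1 differed by 0.30 (limma adjusted p = 0.0701, in a range of 0.00583 to 0.131).

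In the cytoplasmic and nuclear pathway 6 of 30 genes were called, all 6 lower, beside 16.8% of all genes (8.41% higher and 8.35% lower). In this list 11 had an unadjusted p under 0.05, and the median was -0.11. With the filter at 5, 7 of 29 were called, all lower, beside 31.1% of all genes kept. Array weights gave 3 higher and 7 lower of 30, beside 21.9% of all genes. Leaving out control 3 gave 2 higher and 7 lower, beside 19.2% of all genes. In the other alternatives no gene of this list was called higher. The nuclear antagonist CBY1 fell, at a log2 fold change of -0.72, as did the GSK3 inhibitor FRAT1 at -0.66 and the destruction complex kinases CSNK1A1 and GSK3B at -0.58 and -0.56 (limma adjusted p 0.00347 to 0.00647). The 6 thus held both activators and inhibitors of the pathway. Single probe sets of GSK3B, CSNK1A1 and FRAT1 read 0.34, 0.16 and 0.03, and averaged over its probe sets GSK3B differed by -0.11 (limma adjusted p = 0.445, the highest of a range from 0.00155). CTNNB1, the gene of beta-catenin itself, was chosen after its values were seen. It read 10.77, 10.40 and 10.90 on the knockdown arrays, against 9.71, 10.42 and 10.51 on the control arrays. The groups overlapped (limma adjusted p = 0.152). This probe set had the highest of the 8 log2 fold changes of CTNNB1, which ran from -0.29 to 0.48.

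Known targets of beta-catenin held 4 that rose and 2 that fell, of 26 measured. The cyclin gene CCND1 read 9.78, 9.79 and 9.85 on the knockdown arrays, against 8.86, 8.84 and 8.98 on the control arrays (log2 fold change 0.92, SE 0.09, limma adjusted p = 2.78e-04). BMP4, a growth factor, rose by 0.84 and CD44, an adhesion receptor, by 0.49, while MYC fell by 0.67. Single probe sets of CD44 read as little as 0.04, and the 4 probe sets of CCND1 differed by 0.39 to 1.26. The general feedback targets AXIN2, NKD1 and SP5, chosen after their values were seen, differed by 0.19, 0.02 and 0.29 and did not pass. The 3 probe sets of AXIN2 ranged from -0.13 to 0.19.

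Targets of beta-catenin in hepatocytes around the central vein held 1 of 10 that passed. TBX3, a transcription factor, rose by 0.47 (SE 0.12, limma adjusted p = 0.0284). This call was lost without any of the 3 knockdown arrays or controls 1 and 2 (limma adjusted p 0.0683 to 0.0955). The 6 probe sets of TBX3 differed by 0.015 to 0.86. OAT, a mitochondrial enzyme of ornithine breakdown, differed by 0.51 (SE 0.16, limma adjusted p = 0.0533).

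**Figure D4:**
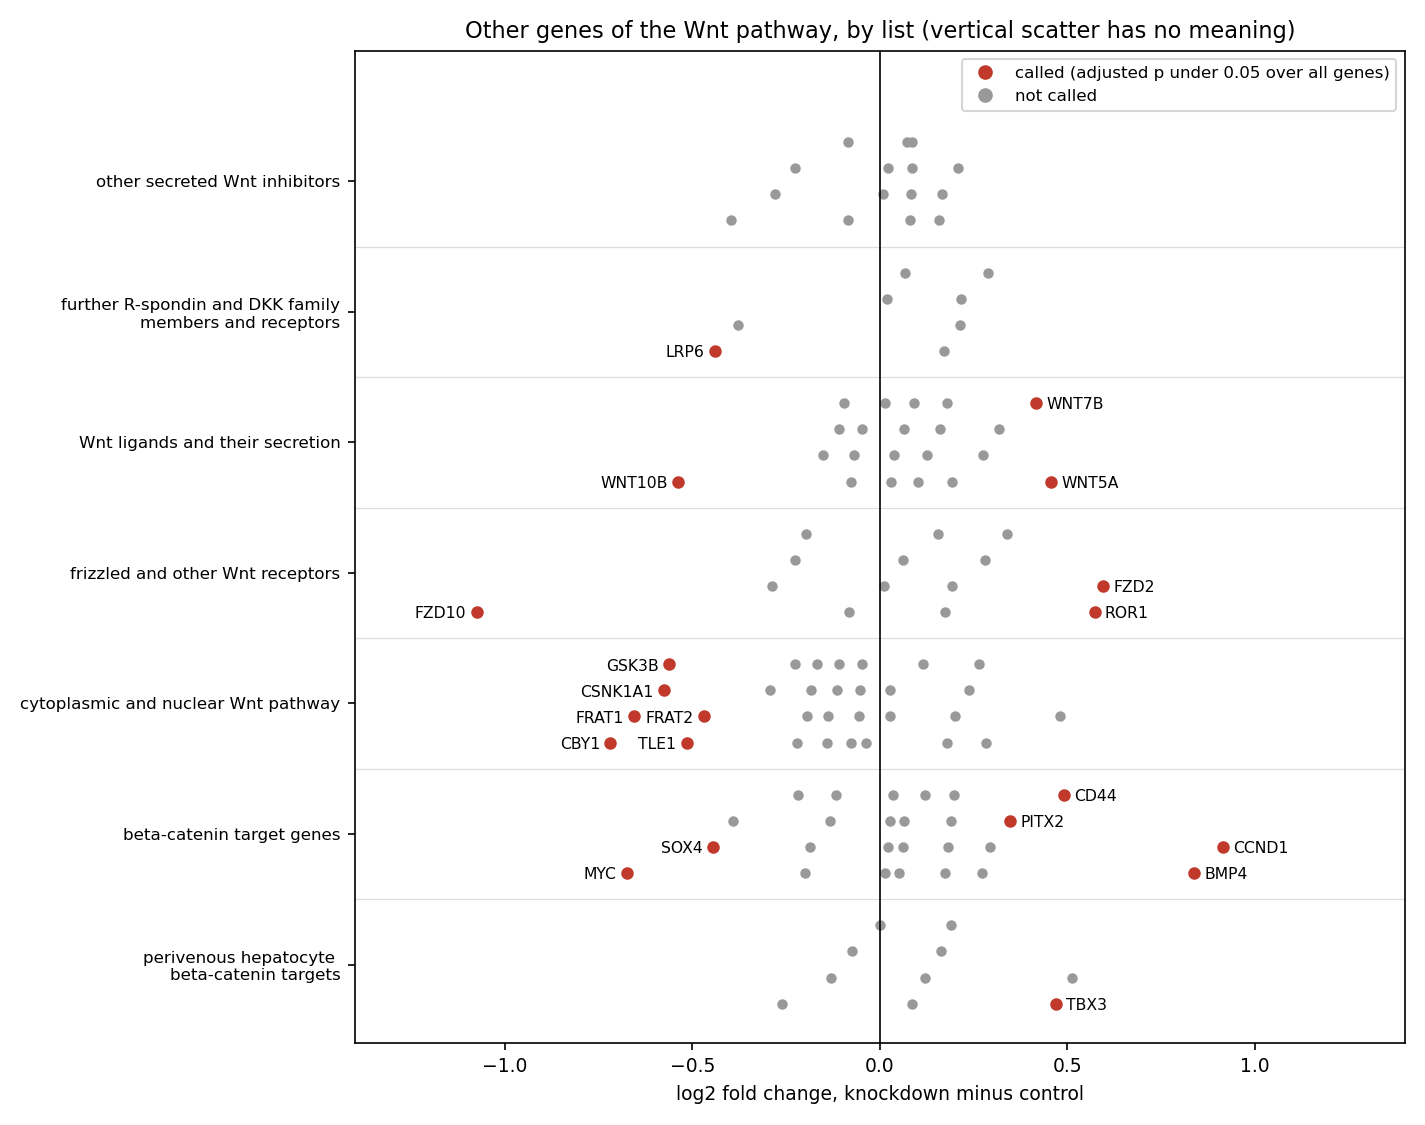
Log2 fold change, knockdown minus control, of each measured gene (points) in the 7 lists of other Wnt pathway genes. Red points, named, passed at an adjusted p under 0.05 over all genes. FZD10 at -1.08 and CCND1 at 0.92 are the outermost, and the passing genes of the cytoplasmic and nuclear list all lie left of 0.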

How the data were processed

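Expression was measured on 6 arrays with 49372 probe sets, and the authors deposited log2 values made with RMA and the affy package, per the submitters' processing notes. Their versions, the array design and the genome build were not found in the labels. The series matrix held the same log2 values as deposited in all 296232 cells. The 79 control probe sets were left out, which left 49293. Groups came from the titles, since the description of the knockdown samples speaks of empty virus. Names were taken through the Entrez number and RefSeq (GRCh38.p14), and each of 18574 genes was represented by its probe set of highest mean over the 6 arrays, also in the alternatives that did not vary that choice.

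The comparison used two-sided limma tests (version 3.58.1, R 4.3.3) without covariate or filter, with Benjamini-Hochberg adjustment over all probe sets for the 10 genes and over all genes for the lists. The fit was tested on simulated data. Number of arrays limits the precision. Probe sets ending in _s_at, _x_at or _a_at can match several transcripts, and different probe sets' levels are not comparable. Members and lists were chosen with earlier results of these data known. Named were all probe sets of the 10 genes, SOX9, up to 4 passing genes per list with the largest change (in a list with under 2 passing, the 2 of lowest p), and the 5 nearest genes in pattern to DKK1 and RSPO3, leaving out LOC, LINC and orf symbols. Tables and plots used Python 3.11.15, pandas 2.3.3 and matplotlib 3.10.9. Alternatives were a filter on signal, renormalization, array weights, a trended robust variance, replicate number as block, a spike-in covariate, other probe sets for a gene, and leaving out each array.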

Additional observations from a re-analysis of the deposited data

How the results depend on the processing

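DKK1 and RSPO3 kept their direction and call under all 16 alternatives, with log2 fold changes of 1.900 to 2.005 and 1.66 to 1.96. Each has 1 probe set, so the alternatives that vary the probe set or take the series matrix could not change them. The filter, trended variance and replicate block left their log2 fold changes as they were. Both were chosen from this comparison and refitted on the same arrays, so keeping the call is not independent support. In the fit over all genes, the other 8 were not called under these alternatives, with 2 exceptions. These were ZNRF3 with array weights (-0.31) and DKK3 where the probe set of largest variance stood for it (0.44). In the fit over all probe sets ZNRF3 was not called with array weights. The number of called probe sets of the 10 genes was 2 or 3 throughout, with the DKK3 probe set the one lost. The poly-A spike-in covariate lowered the calls to 990 probe sets, 767 genes and 2 listed Wnt genes, from 6220, 3114 and 20; the cause was not tested. Leaving out single arrays gave 2508 to 8757 probe sets, 1758 to 3563 genes, 12 to 22 listed Wnt genes and 2 to 3 called probe sets of the 10 genes. The replicate block gave 3343 probe sets; same-numbered arrays deviated against each other (correlations -0.24, -0.40 and -0.42), so the numbers are not taken as pairs. With a gene's probe sets averaged, LRP6, WNT5A, WNT7B, ROR1, GSK3B, FRAT1 and CD44 lost their calls. KREMEN1, OAT and TPBG passed with the filter at 5 (limma adjusted p 0.0414, 0.0349 and 0.0447). The series matrix gave identical results. Low signal limits DKK2, DKK4, RSPO1 and LGR5, which read under 5 on all their probe sets, so differences in these genes could be missed.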
